A study of Mus musculus with 12 samples.

Results

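Th9 cells restimulated with anti-CD3 for 6 hours were compared with Th9 cells that were left unstimulated, on 6 of the 12 arrays of the series. The groups were taken from the sample titles, which name 3 stimulated and 3 unstimulated Th9 arrays, and no measured value was used to choose them. Naive CD4+CD62L+ T cells had been selected with magnetic beads from spleens and lymph nodes of C57BL/6 mice, whose age and sex the labels do not give. All cultures were activated with plate-bound anti-CD3 and soluble anti-CD28. Both Th9 groups received an antibody against IFN-γ together with IL-4 at 20 ng/ml and TGF-β at 2 ng/ml, were expanded partway with fresh medium that again held IL-4 and TGF-β, and were kept for 5 days in all. The stimulated group then received anti-CD3 at 1 µg/ml for 6 hours, and the unstimulated group did not. The other 6 arrays, 3 of Th2 cultures (IL-4 and anti-IFN-γ) and 3 of Treg cultures (TGF-β and anti-IL-4), entered the filter on dim probes and the estimate of the spread between replicates, and their levels are given for Il9 and for sex-linked genes. From each sample 0.5 µg of total RNA was labelled with Cy3 and hybridised to 1 field of an Agilent mouse slide, which carries 4 arrays.

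When the T cell receptor is engaged, here by an antibody against CD3, calcium and kinase signals bring NFAT, AP-1 and NF-κB to the promoters of cytokine and activation genes. Immediate early transcription factors of the EGR and NR4A families appear first, and effector T cells then transcribe those cytokine genes that their earlier differentiation has opened. Th9 cells arise under IL-4 and TGF-β together and are known for secreting IL-9, a growth and survival factor for mast cells that acts in allergy and in immunity to worms.

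Each array carried 41174 probes outside the controls, of which 59.9% to 63.7% were well above background, and no probe was saturated. A level in the following is the log2 of the processed signal minus the 75th percentile of that array, so that 0 means the 75th percentile, and levels of different genes cannot be compared because each comes from its own probe. A log2 difference is the mean of the 3 stimulated arrays minus the mean of the 3 unstimulated arrays, with ± its standard error from limma. A gene is said to have risen or fallen where its p-value, adjusted by the Benjamini-Hochberg method over all 17927 genes tested, was under 0.05. Whether the arrays of a group stand for separate cultures or mice is not stated in the labels, and a p-value is therefore a measure of the spread among these arrays alone, part or all of which may be technical.

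The labels were set against markers of the cells. All 12 tested T cell markers, among them Cd3e, Cd4 and Thy1, were well above background on all 6 arrays. Il9 had a mean level of -1.69 in the unstimulated Th9 group, against -8.08 in the Th2 and -7.76 in the Treg group, which were not restimulated. Spi1, which encodes PU.1, a transcription factor known for driving Il9 in Th9 cells, was not detected above background on any of the 6 Th9 arrays and was not tested. Of the 11 other Th9 markers on the list 5 rose and 5 fell, against 33.1% and 30.6% of all genes tested.

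Stimulated array 3 lay on another slide than stimulated arrays 1 and 2. The slide of array 3 also held the 3 unstimulated Th9 arrays, whereas arrays 1 and 2 shared theirs with 2 Treg arrays, so within 1 slide the comparison rests on array 3 alone. It also came from male cells, as far as sex-linked genes show, while the other 11 arrays came from female cells. Xist, the RNA that coats the inactive X chromosome of female cells, stood at 3.94, 4.23 and 4.08 on the unstimulated Th9 arrays and at 3.47, 3.14 and -8.19 on the stimulated ones, so that array 3 alone among the 12 arrays did not detect it. The Y chromosome genes Ddx3y, Eif2s3y and Kdm5d were well above background on array 3 and on none of the other 11, with levels of 0.96, 2.61 and -1.76 on array 3 and at or below -6.39 elsewhere. Of 3 probes for the Y-linked gene Uty, 2 were above background on array 3 only and 1 on unstimulated array 1 only. Slide, sex and culture therefore cannot be told apart where array 3 differs from arrays 1 and 2. Across the 17927 genes tested, which are not independent replicates, the levels of arrays 1 and 2 correlated at 0.9947 and those of array 3 with either at 0.9881 to 0.9895. The unstimulated arrays correlated with each other at 0.9909 to 0.9936 and with the stimulated arrays at 0.9187 to 0.9411. What array 3 showed alone is given beside part of the results only, and a result without it may also differ on array 3.

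Counting differences of any size, 63.7% of the tested genes were called between the restimulated and the unstimulated arrays. Stimulated arrays 1 and 2 also differed from the unstimulated ones in slide, and array 3 differed in sex by its sex-linked genes. Of 17927 genes, 5932 (33.1%) rose and 5490 (30.6%) fell, while the median difference over all genes was 0.019 and the median standard error 0.166. At least 2-fold changes were found in 3173 rising genes (17.7%) and 2982 falling genes (16.6%). The 3 stimulated arrays all lay above the 3 unstimulated ones in 6334 genes (35.3%) and all below them in 5903 (32.9%). Counts of rising and falling genes in the gene lists below are to be read against the shares of 33.1% and 30.6%. The lists were chosen with earlier results of these data known. Array 3 alone, set against the unstimulated arrays of its slide, gave 4929 higher and 4355 lower genes (27.5% and 24.3%), and arrays 1 and 2 gave 5791 and 5448 (32.3% and 30.4%). Both comparisons used the same unstimulated arrays and are parts of the main one, so agreement between them is partly built in.

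**Figure D1:**
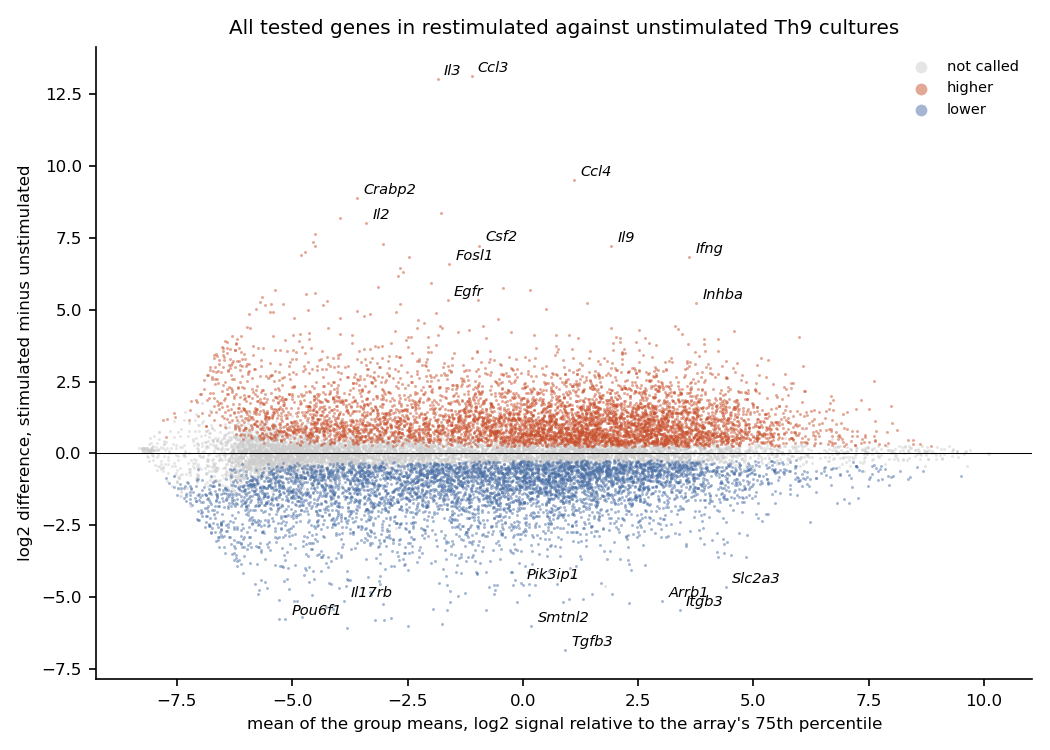
Each point is 1 of 17927 genes, with the mean of its stimulated and unstimulated group means on the x axis (log2 signal relative to the array's 75th percentile) and the log2 difference, stimulated minus unstimulated, on the y axis. Red points rose, blue points fell and grey points were not called. Ccl3 and Il3 lie farthest above 0 and Tgfb3 farthest below.

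Secreted cytokines rose as a group. Of 33 tested cytokine genes, 25 rose and 7 fell, with a median difference of 3.16, and the counts were 25 and 6 with array 3 alone as well as with arrays 1 and 2. The median takes in genes that were not well above background without restimulation. With probes well above background on all 12 arrays 18 cytokines remained, of which 11 rose and 6 fell, with a median of 1.49. Another background correction (normexp) gave a median of 2.27 for the 33 genes. Il9 stood at -2.43, -1.18 and -1.47 on the unstimulated arrays and at 4.87, 5.59 and 6.11 on the stimulated arrays. The groups were far apart, array 3 was the highest of all, and Il9 rose by 7.21 ± 0.36 (adjusted p = 1.05e-07). Array 3 alone gave 7.80 for Il9, and arrays 1 and 2 gave 6.92.

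The cytokines shared with Th2 cells rose too. Il4, the cytokine that had been added to the cultures as protein, stood at 3.79, 3.91 and 4.18 without and 8.62, 8.19 and 7.23 with restimulation. All 3 stimulated arrays lay above, with array 3 the lowest, and the difference was 4.06 ± 0.40 (adjusted p = 6.25e-06). Il5, which recruits eosinophils, rose by 3.23 ± 0.47 (adjusted p = 0.000115), from a mean of 1.55 to 4.77. Il13, which drives mucus and airway responses, rose by 3.50 ± 0.23 (adjusted p = 3.71e-07), from -3.24 to 0.27. Il10, an inhibitory cytokine that Th9 cells also make, rose by 2.83 ± 0.28, and Il24, a member of its family, by 1.80 ± 0.20. For Il5 and Il13 a difference of array 3 from arrays 1 and 2 did not pass the test (adjusted p = 0.937 and 0.675).

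Il21, the cytokine of T cell help to B cells, stood at -3.35, -2.62 and -2.08 without and at 2.91, 2.94 and 3.14 with restimulation. The stimulated arrays lay within a narrow range well above the others, and the difference was 5.68 ± 0.26 (adjusted p = 8.12e-08). Il2, the T cell growth factor, was not well above background on any unstimulated array, where its signals read -7.18, -7.36 and -7.66, and stood at 1.09, 1.12 and -0.37 on the stimulated arrays. It rose (adjusted p = 4.06e-07), with no fold given because the unstimulated signals were not well above background. For other genes of this kind a lower bound, written as at least N-fold, sets the mean of the brighter group against the lowest signal that was well above background on each array of the dimmer group, or against the gene's own signal where that was higher. Il3, a growth factor for mast cells and basophils, went from signals not well above background to 5.85, 5.06 and 3.09, a rise of at least 1740-fold (adjusted p = 7.66e-08).

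For 4 effector cytokines, array 3 stood lower than arrays 1 and 2. Csf2, which encodes GM-CSF, stood at -4.81, -4.48 and -4.40 without and at 4.04, 3.33 and 0.65 with restimulation. The rise of 7.24 ± 0.69 (adjusted p = 5.23e-06) was 5.21 with array 3 alone and 8.25 with arrays 1 and 2. Ifng, the Th1 cytokine, stood at 0.45, 0.42 and -0.27 without and at 8.39, 8.12 and 4.55 with restimulation. It rose by 6.82 ± 0.80 (adjusted p = 2.26e-05), and array 3 lay -3.70 ± 0.36 from arrays 1 and 2 on the log2 scale (adjusted p = 0.00198). Tnf went from -0.39, -0.21 and -0.39 to 3.54, 3.18 and 1.77, a rise of 3.16 ± 0.38 (adjusted p = 2.68e-05), and array 3 was again the lowest of the stimulated arrays but above the unstimulated ones. Il3 also differed between array 3 and arrays 1 and 2 (-2.37 ± 0.47, adjusted p = 0.0489). By summed signal, as given at the end, markers of CD8 T cells and NK cells were lowest on the same array 3. Killer genes were lowest there among the stimulated arrays only. The part of these genes in the levels of these cytokines was not tested.

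Areg, an EGF-family growth factor in tissue repair, was at least 37.1-fold and Il22, which acts on epithelia, at least 3.02-fold higher with restimulation. Of the 33 cytokine genes tested, 3, these 2 among them, passed the filter on dim probes only through the 3 stimulated arrays, so they had to differ, and no p-value is given for them. Over all genes 110 passed in this way. Inhba, the activin A subunit, stood at 0.55, 1.02 and 1.84 without and 6.64, 6.48 and 6.03 with restimulation, and rose by 5.24 ± 0.42 (adjusted p = 1.62e-06). Spp1, which encodes osteopontin, rose by 4.66 ± 0.42, Penk, the proenkephalin gene, by 3.52 ± 0.59, and Il17f by 3.14 ± 0.28. The 7 cytokines that fell were led by Tgfb3, at 4.48, 4.56 and 4.02 without and -2.71, -2.55 and -2.27 with restimulation. It fell by 6.86 ± 0.28 (adjusted p = 5.65e-08), and the groups were far apart. Metrnl fell by 2.38 ± 0.25, Il16 by 1.99 ± 0.13, Il34 by 1.55 ± 0.15, Ltb, a lymphotoxin subunit, by 1.18 ± 0.17, and Il12a and Ebi3 by 0.90 ± 0.33 and 0.66 ± 0.17, calls that some alternative settings did not keep. Tgfb1, by contrast, rose by 0.93 ± 0.10.

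The promoters of Il9, Il2, Il21 and Tnf are shown because these genes rose in the comparison and carry more than 1 match to the motifs of factors that the T cell receptor activates. The sequences are the 250 bases before the first listed transcription start of each gene, 5′ to 3′ on the gene's strand, from RefSeq on GRCm38.p6. They lie at chr13:56482258-56482507 (minus strand) for Il9, chr3:37125955-37126204 (minus) for Il2, chr3:37232637-37232886 (minus) for Il21 and chr17:35202008-35202257 (minus) for Tnf. Capitals mark matches, on either strand, to the motifs of AP-1 (TGANTCA), NFAT (GGAAAA) or NF-κB (GGG, then 2 free bases, then TTTCC).
Il9: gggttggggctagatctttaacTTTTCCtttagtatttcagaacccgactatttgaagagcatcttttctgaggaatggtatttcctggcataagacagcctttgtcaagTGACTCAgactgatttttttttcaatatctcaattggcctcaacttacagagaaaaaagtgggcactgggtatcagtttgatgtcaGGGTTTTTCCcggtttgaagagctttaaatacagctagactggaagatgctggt
Il2: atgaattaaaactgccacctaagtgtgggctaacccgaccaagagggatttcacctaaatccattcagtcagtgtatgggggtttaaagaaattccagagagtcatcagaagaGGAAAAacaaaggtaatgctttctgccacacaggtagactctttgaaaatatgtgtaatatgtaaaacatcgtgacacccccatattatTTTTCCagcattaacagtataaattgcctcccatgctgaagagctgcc
Il21: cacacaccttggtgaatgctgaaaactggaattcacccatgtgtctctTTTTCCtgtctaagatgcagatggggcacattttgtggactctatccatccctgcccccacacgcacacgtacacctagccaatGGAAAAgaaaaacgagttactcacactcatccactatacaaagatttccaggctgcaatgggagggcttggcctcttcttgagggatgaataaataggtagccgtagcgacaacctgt
Tnf: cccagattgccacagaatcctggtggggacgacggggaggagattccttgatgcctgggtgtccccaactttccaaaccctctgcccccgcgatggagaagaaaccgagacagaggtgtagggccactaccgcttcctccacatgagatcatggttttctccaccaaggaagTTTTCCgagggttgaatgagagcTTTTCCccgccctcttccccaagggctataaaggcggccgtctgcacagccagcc
In Il9 an NFAT match begins 228 bases before the start, an AP-1 match at 140 bases, an NF-κB match at 54 bases and a second NFAT match at 50 bases, which overlaps the NF-κB match. Il2 has NFAT matches at 137 and 48 bases, Il21 at 202 and 118 bases, and Tnf at 78 and 55 bases.

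Such short motifs differ in how often they occur. In 27025 promoters of this length the AP-1 letters were found in 6.87%, the NFAT letters in 20.6% and the NF-κB letters in 1.4%. Among the 11305 tested genes with a promoter in the table the shares were 4.61%, 18.5% and 1.31%. Among 3926 rising genes they were 4.3%, 18.3% and 1.32%, and among 3656 falling genes 4.38%, 17.7% and 1.29%. Of the 26 cytokine genes of the list with a promoter, 5 (19.2%) held the AP-1 letters, 7 (26.9%) the NFAT letters and 4 (15.4%) the NF-κB letters. A match is a description of the letters, and its use by a factor was not measured.

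**Figure D2:**
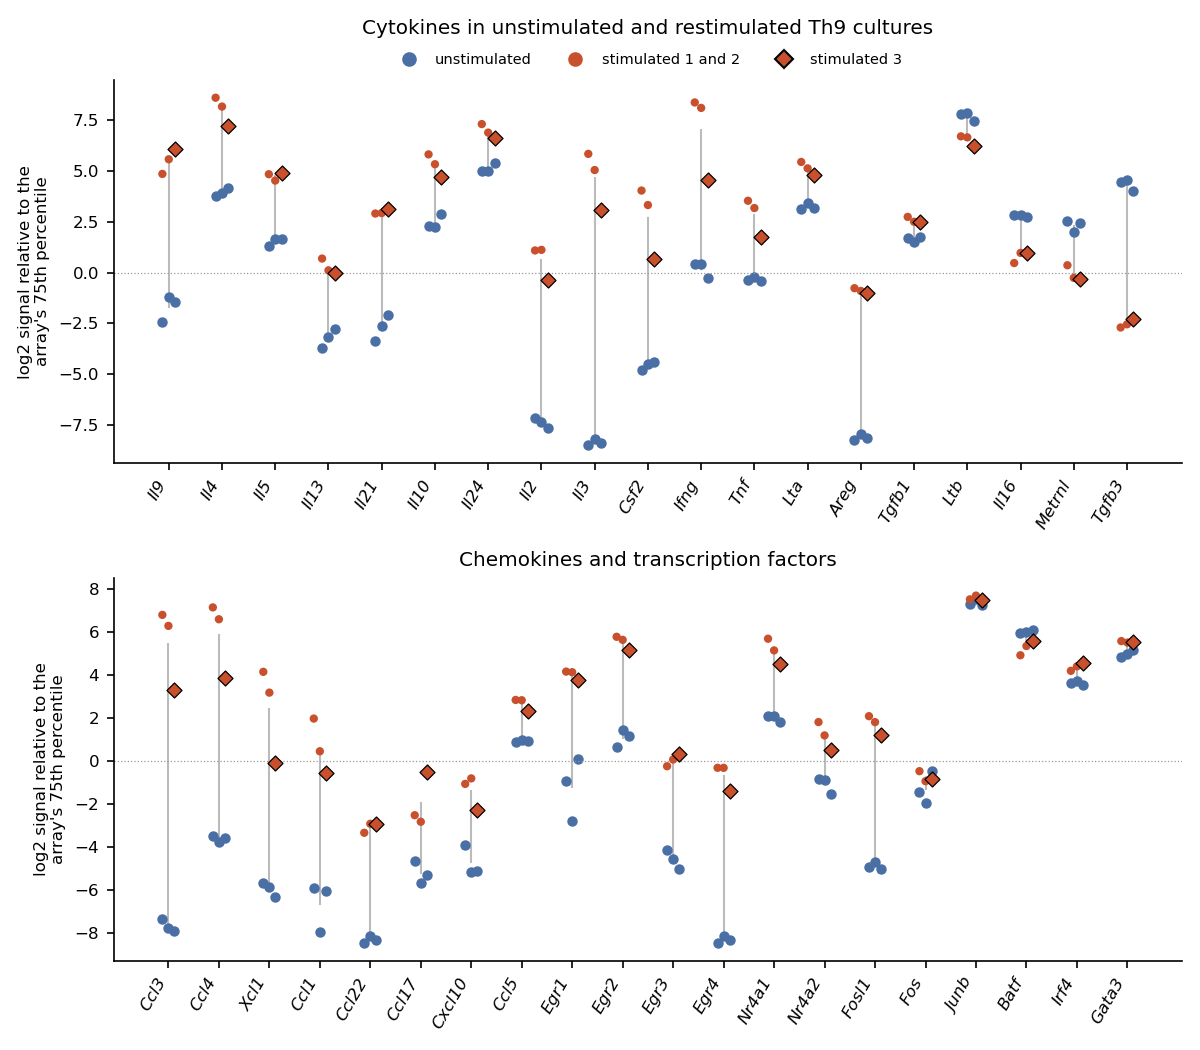
Levels (log2 signal relative to the array's 75th percentile) of cytokine genes in the upper panel and of chemokine and transcription factor genes in the lower panel, on each unstimulated (blue) and stimulated (red) Th9 array. Stimulated array 3 is a diamond and grey lines join the group means. Il9, Il21 and Il5 are about as high on array 3 as on arrays 1 and 2, whereas Ifng, Csf2, Ccl3, Ccl4 and Xcl1 are lower there, and Tgfb3 falls on all 3 stimulated arrays.

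Chemokine ligands, which attract other leukocytes, rose with the cytokines. Of 14 tested, 11 rose and 1 fell, with a median difference of 3.31. Normexp background correction gave a median of 1.67. With probes well above background on all 12 arrays only 3 remained, of which 2 rose and 1 fell, with a median of 1.72. Ccl3, which draws monocytes and T cells, was not well above background without restimulation and stood at 6.81, 6.30 and 3.28 with it, a rise of at least 3030-fold (adjusted p = 2.4e-07). Ccl4, its neighbour in function, went from -3.52, -3.80 and -3.59 to 7.16, 6.61 and 3.85. It rose by 9.51 ± 0.66 (adjusted p = 5.93e-07), with array 3 at 7.49 and arrays 1 and 2 at 10.52 above the unstimulated arrays. Xcl1, known from killer cells and well above background on 1 of 3 unstimulated arrays, stood at 4.15, 3.18 and -0.11 with restimulation and rose (adjusted p = 9.48e-06), with no fold given.

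Both ligands of the receptor CCR4, which is typical of Th2 cells, rose as well. Ccl22 was not above background without restimulation and rose at least 8.14-fold (adjusted p = 1.18e-07). Ccl17 stood at -4.67, -5.70 and -5.34 without and -2.53, -2.83 and -0.49 with restimulation, highest on array 3, was well above background on 2 of 3 unstimulated arrays, and rose by 3.28 ± 0.62 (adjusted p = 0.000794). Ccl1, the ligand of CCR8, was above background on 1 of 3 unstimulated arrays, stood at 1.98, 0.45 and -0.57 with restimulation and rose (adjusted p = 4.26e-06), again with no fold given. Ccl5 rose by 1.72 ± 0.19 and Cxcl10, an interferon-induced chemokine, by 3.34 ± 0.47. The gene that fell was Cxcl16, by 1.20 ± 0.16, but its 2 probes disagreed, the other rising by 3.31.

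Ligands of the TNF superfamily rose in 9 of 14 tested and fell in 2, with a median of 1.00. Tnfsf4, the OX40 ligand, stood at -1.44, -1.57 and -2.41 without and 1.24, 1.24 and 0.38 with restimulation, so the groups did not overlap, and rose by 2.76 ± 0.33 (adjusted p = 2.65e-05). Tnfsf8, the CD30 ligand, rose by 2.38 ± 0.17, Tnfsf11, which encodes RANKL, by 2.35 ± 0.36, Cd40lg, the helper signal to B cells, by 1.98 ± 0.32, and Lta by 1.87 ± 0.23. Tnfsf13b, which encodes the B cell survival factor BAFF, stood at 2.25, 1.85 and 1.59 without and -1.81, -1.83 and -0.91 with restimulation. It fell by 3.41 ± 0.26 (adjusted p = 9.93e-07). Fasl did not pass the test (0.17 ± 0.37, adjusted p = 0.706).

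Immediate early genes of the EGR and NR4A list were mostly higher at 6 hours of restimulation. In the EGR and NR4A list 12 of 16 tested genes rose and 3 fell, with a median of 1.68, and array 3 alone gave the same counts. Egr2, which with Egr3 restrains T cell activation, stood at 0.64, 1.46 and 1.14 without and 5.79, 5.64 and 5.16 with restimulation. The groups were well separated and it rose by 4.45 ± 0.26 (adjusted p = 2.25e-07). Egr1 rose by 5.24 ± 0.72 (adjusted p = 7.54e-05) and its unstimulated arrays were spread widely, at -0.95, -2.79 and 0.092. Egr3 rose by 4.63 ± 0.25, and Egr4 at least 42.7-fold (adjusted p = 2.91e-06). Nr4a1, a reporter gene of T cell receptor signal strength, went from 2.10, 2.09 and 1.80 to 5.70, 5.15 and 4.53, a rise of 3.13 ± 0.28 (adjusted p = 3.42e-06). Nr4a2 rose by 2.27 ± 0.34 and Nab2, which binds and inhibits EGR proteins, by 1.07 ± 0.12. Those that fell were Ier3 (-2.45 ± 0.26), Nab1 (-0.76 ± 0.14) and Klf4 (-0.73 ± 0.18).

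The AP-1 and related factors did not move as 1 group. Of 23 tested, 4 rose and 8 fell, with a median of -0.26. Fosl1, which encodes FRA-1, stood at -4.96, -4.73 and -5.02 without and 2.09, 1.81 and 1.22 with restimulation and rose by 6.61 ± 0.28 (adjusted p = 6.28e-08). Fos, at -1.44, -1.96 and -0.47 without and -0.48, -0.94 and -0.84 with restimulation, overlapped between the groups and did not pass the test (0.54 ± 0.49, adjusted p = 0.36). Fosb (0.86 ± 0.49, adjusted p = 0.145) and Junb (0.19 ± 0.13, adjusted p = 0.207) did not pass either. Mafk rose by 2.10 ± 0.13. Jdp2, a repressor among the AP-1 factors, fell by 2.90 ± 0.23 and Nfil3, which represses type 2 cytokine genes, by 2.13 ± 0.21. Ddit3, the stress factor CHOP, fell by 2.61 ± 0.13.

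Genes of the NFAT and calcineurin list went both ways, 7 of 17 higher and 8 lower, against 33.1% and 30.6% of all genes. Rcan1, a calcineurin inhibitor that NFAT itself induces, rose by 1.17 ± 0.17 (adjusted p = 9.88e-05), and the calcineurin subunit Ppp3ca by 1.04 ± 0.11. The subunit Ppp3cc fell by 1.83 ± 0.18. Of the channels and sensors of calcium entry, Orai1 rose by 0.84 ± 0.16 while Orai2 fell by 1.58 ± 0.17 and Stim1 by 1.32 ± 0.16. Nfatc1 fell by 0.57 ± 0.11 on its brighter probe, but its other probe rose by 1.29, so no direction can be given for the gene.

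In the NF-κB list 10 of 22 tested genes rose and 6 fell, against 33.1% and 30.6% of all genes, with a median of 0.39. Inhibitors of the pathway were among those that rose. Nfkbia rose, at 5.42, 5.57 and 5.26 without and 6.82, 7.01 and 6.72 with restimulation, by 1.43 ± 0.14 (adjusted p = 5.03e-06), Nfkbie by 1.73 ± 0.12, Nfkbid by 2.27 ± 0.25 and Nfkbib by 1.40 ± 0.12. Among the subunits Nfkb2 rose by 2.10 ± 0.13 (adjusted p = 3.37e-07) and Relb by 0.87 ± 0.10. Rel did not pass the test (0.50 ± 0.25, adjusted p = 0.106), and neither did Tnfaip3, the feedback inhibitor A20 (0.016 ± 0.23, adjusted p = 0.956). Bcl3 fell by 1.68 ± 0.14 and Cyld, a deubiquitinase that limits the pathway, by 1.74 ± 0.11 on 1 probe, while its 2 others did not pass (-0.14 and -0.30). Of the MAP kinase phosphatases and Sprouty genes 7 of 15 rose and 3 fell, against the same shares of all genes. Dusp2 rose by 2.42 ± 0.22, Spry1 by 2.34 ± 0.45 and Dusp6, a phosphatase of ERK, by 1.69 ± 0.16, while Dusp10 fell by 1.51 ± 0.23.

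The factors that set T helper lineages changed unevenly, 15 of 34 higher and 9 lower, with a median of 0.06. The shares of all genes were 33.1% and 30.6%. Of the factors known from Th9 cells, Irf4, Gata3 and Batf had small differences. Irf4 stood at 3.62, 3.73 and 3.52 without and 4.20, 4.41 and 4.56 with restimulation, without overlap, and rose by 0.76 ± 0.18 (adjusted p = 0.00378), but with quantile normalization the adjusted p was 0.0643. Gata3 rose by 0.53 ± 0.16 (adjusted p = 0.0154), but not with array 3 alone (0.51, adjusted p = 0.106), with quantile normalization (0.206, adjusted p = 0.268), with the slide as a fixed block (0.508, adjusted p = 0.102) or without unstimulated array 1 (0.451, adjusted p = 0.0575). Batf, at 5.98, 6.01 and 6.10 without and 4.93, 5.36 and 5.60 with restimulation, fell by 0.74 ± 0.18 (adjusted p = 0.00425), and array 3 alone gave -0.43 (adjusted p = 0.14). Foxp3 did not pass the test (0.35 ± 0.22, adjusted p = 0.195). Etv5, a factor that binds the Il9 locus, was well above background on 2 of 3 unstimulated arrays and rose by 3.03 ± 0.38 (adjusted p = 3.67e-05).

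Factors of other lineages went both ways. Tbx21, which encodes T-bet of Th1 cells, went from 1.94, 1.87 and 1.14 to 5.32, 5.27 and 3.91, lowest on array 3 among the stimulated arrays, and rose by 3.18 ± 0.34 (adjusted p = 1.21e-05). Zbtb32, a repressor of T cell activation, rose by 2.96 ± 0.23, Hlx by 2.37 ± 0.23, Ets2 by 2.24 ± 0.13, Id3 by 1.97 ± 0.19, and Pparg, which Th2 and Th9 cells express, by 1.36 ± 0.24. Rora fell by 3.27 ± 0.24 (adjusted p = 8.73e-07), Runx3 by 2.34 ± 0.21, Ikzf2 by 1.62 ± 0.26, Ahr by 1.58 ± 0.29 and Ets1 by 1.41 ± 0.12.

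Of 16 IRF and STAT genes, 3 rose and 7 fell, against 33.1% and 30.6% of all genes. Stat5a rose by 0.93 ± 0.12 while its neighbour Stat5b fell by 1.58 ± 0.12, and the arrays of the groups did not overlap for either. Stat4, which carries the IL-12 signal, fell by 2.25 ± 0.30, Stat3 by 1.52 ± 0.26 and Stat6, the IL-4 signal carrier, by 0.61 ± 0.15. In the SOCS and PIM list 1 of 11 rose, Socs6 (1.12 ± 0.11), and 3 fell, of which Pim2, a survival kinase, went from 4.76, 4.72 and 4.53 to 1.76, 1.99 and 1.98 and fell by 2.76 ± 0.15 (adjusted p = 1.52e-07).

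Of 27 inhibitory and costimulatory receptors and ligands tested, 14 rose and 6 fell, with a median of 0.82. The counts were 10 and 7 with array 3 alone and 16 and 7 with arrays 1 and 2. Pdcd1, the inhibitory receptor PD-1, stood at 0.094, 0.16 and 0.25 without and 4.30, 3.89 and 3.94 with restimulation. The 2 groups were far apart and the stimulated arrays close together, and it rose by 3.88 ± 0.12 (adjusted p = 2.43e-08). Its ligands rose as well, Pdcd1lg2 by 3.08 ± 0.18 and Cd274 by 1.55 ± 0.24. Btla rose by 2.74 ± 0.15, Cd200 by 2.92 ± 0.19, Cd69, the early activation antigen, by 2.50 ± 0.30 and Cd80 by 2.60 ± 0.23. Icos (0.005 ± 0.16, adjusted p = 0.982), Ctla4 (-0.053 ± 0.32, adjusted p = 0.898) and Lag3 (0.70 ± 0.39, adjusted p = 0.136) did not pass the test. Both ectoenzymes that turn extracellular ATP into adenosine fell, Entpd1, which encodes CD39, from 0.72, 0.30 and 0.30 to -4.14, -3.70 and -4.42 by 4.53 ± 0.20 (adjusted p = 7.74e-08), and Nt5e, which encodes CD73, by 2.97 ± 0.27 (adjusted p = 3.76e-06).

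Of 19 receptors of the TNF superfamily 6 rose and 5 fell, shares near the 33.1% and 30.6% of all genes tested. Tnfrsf4, which encodes OX40, rose by 0.60 ± 0.11 and Tnfrsf12a by 1.63 ± 0.10. Tnfrsf18, which encodes GITR, fell by 1.14 ± 0.13 and Tnfrsf9, which encodes 4-1BB, by 0.75 ± 0.14. Of 38 cytokine receptor chains 9 rose and 11 fell, both below the shares of all genes. The high-affinity chain of the IL-2 receptor, Il2ra, rose by 0.94 ± 0.13 (adjusted p = 9.71e-05) and Il12rb1 by 1.55 ± 0.15. Il17rb, a chain of the IL-25 receptor that Th9 cells carry, stood at -1.48, -1.80 and -0.61 without and -7.05, -6.74 and -5.53 with restimulation, where only 1 of 3 arrays was well above background. It fell (adjusted p = 2.94e-06), with no fold given. Ifngr1 fell by 2.24 ± 0.23, Il7r by 1.45 ± 0.26 and Il4ra, through which IL-4 acts, by 1.36 ± 0.22.

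Of 29 homing receptors 12 rose and 9 fell, against 33.1% and 30.6% of all genes. Cxcr4, which holds cells in tissue niches, went from 2.64, 2.32 and 2.02 to -0.34, -0.027 and -0.86 and fell by 2.74 ± 0.25 (adjusted p = 3.44e-06). S1pr4 fell by 2.21 ± 0.26, Selplg, the selectin ligand, by 1.97 ± 0.17, Itgb7, the gut-homing integrin chain, by 1.40 ± 0.12 and Ccr7, the lymph node homing receptor, by 1.18 ± 0.13. Ccr4 rose by 0.84 ± 0.19 and Cd44 by 0.74 ± 0.12. Itgb3, an integrin chain outside the list, stood at 6.19, 6.05 and 6.16 without and 0.66, 0.78 and 0.56 with restimulation and fell by 5.47 ± 0.25 (adjusted p = 8.24e-08), while its other probe fell by 0.85.

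The machinery of the T cell receptor itself fell more often than it rose, 19 of 38 genes against 10, with a median of -0.33. Several signalling genes were among those that fell. Plcg1, the phospholipase that opens the calcium signal, went from 4.37, 4.14 and 4.08 to 1.61, 1.57 and 2.05, and fell by 2.45 ± 0.15 (adjusted p = 2.48e-07). Rasgrp1, which activates RAS, fell by 2.24 ± 0.12, Grap2 by 2.04 ± 0.18 and the kinase Txk by 3.61 ± 0.36. Lck (0.056 ± 0.092, adjusted p = 0.618) and Zap70 (-0.41 ± 0.20, adjusted p = 0.0925) did not pass the test, but Zap70 was called in 5 alternative settings and Lck in 2. Of the 4 probes of Cd247, which encodes the zeta chain, 2 did not pass (0.23 and 0.04) and 2 fell (-1.95 and -2.79). Cd6 rose by 1.47 ± 0.16, Cd5, which dampens receptor signals, by 1.32 ± 0.14, the adaptor Lcp2 by 1.23 ± 0.15 and Malt1 by 1.30 ± 0.19. Cd4 fell by 0.95 ± 0.18 (adjusted p = 0.000949).

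**Figure D3:**
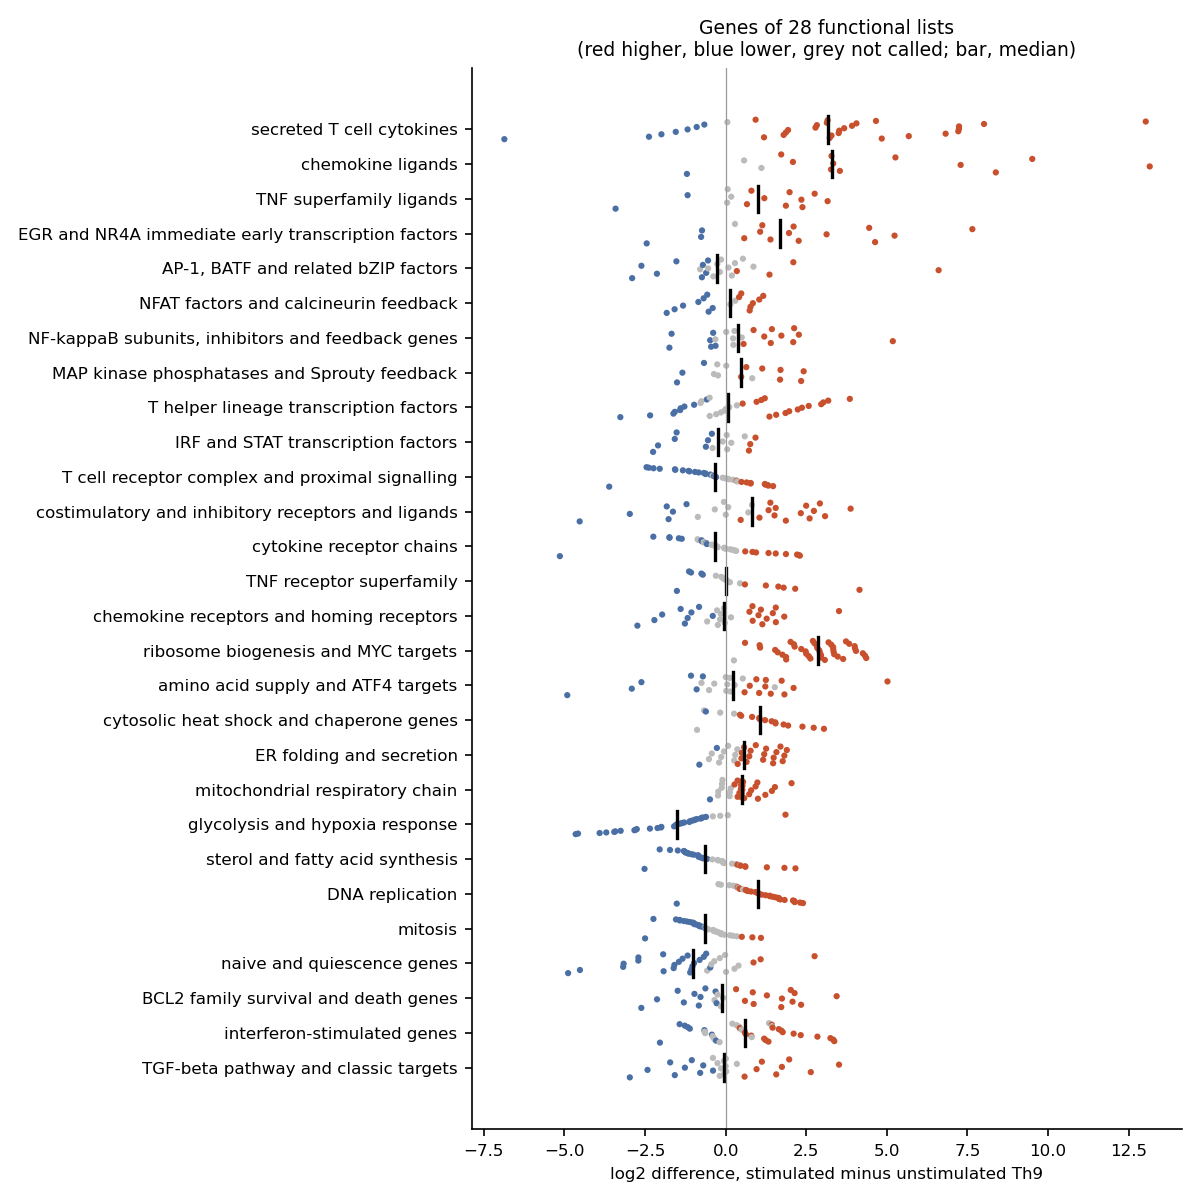
Each point is a tested gene of 1 of 28 functional lists (rows), placed by its log2 difference, stimulated minus unstimulated Th9 (x axis). Red genes rose, blue genes fell, grey genes were not called, and the black bar is the list's median. Ribosome biogenesis lies almost wholly to the right (41 of 42 rose) and glycolysis and hypoxia response almost wholly to the left (32 of 36 fell).

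Genes of ribosome building on the list, which was chosen with earlier results of these data known, rose nearly without exception. Of 42 tested genes of ribosome biogenesis and MYC targets, 41 rose and none fell, with a median of 2.87. The counts were 41 and 0 with array 3 alone and 42 and 0 with arrays 1 and 2. Myc, the factor that drives these genes in growing cells, stood at 2.60, 2.43 and 2.19 without and 5.23, 5.00 and 4.72 with restimulation. The groups did not overlap and it rose by 2.58 ± 0.15 (adjusted p = 2.24e-07). Grwd1, a chaperone of ribosome assembly, went from -0.64, -0.11 and -0.062 to 4.24, 4.12 and 3.92, by 4.36 ± 0.20 (adjusted p = 8.44e-08). Nolc1 rose by 4.32 ± 0.22, Srm, which makes the polyamine spermidine, by 4.25 ± 0.28, Rrs1, a ribosome assembly factor, by 3.83 ± 0.19 and Dkc1 by 3.73 ± 0.19. Ncl, the nucleolin gene, rose by 1.07 ± 0.14, and Npm1, a chaperone of the nucleolus, did not pass the test (0.26 ± 0.16, adjusted p = 0.182).

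Genes for protein folding rose with them. In the list of cytosolic and mitochondrial chaperones 14 of 19 rose and 1 fell, with a median of 1.05. Hspd1, the mitochondrial chaperonin, went from 4.41, 4.51 and 4.71 to 7.72, 7.76 and 7.31, and rose by 3.05 ± 0.16 (adjusted p = 1.24e-07). Hsph1 rose by 2.73 ± 0.23 and the chaperonin subunit Cct3 by 2.38 ± 0.14, while Hspa1a, the classic stress-induced gene, did not pass the test (-0.89 ± 0.43, adjusted p = 0.0978). The gene that fell was Hsf1, by 0.61 ± 0.13, but its 2 other probes rose by 1.68 and 1.61. In the endoplasmic reticulum list 18 of 29 rose and 2 fell, with a median of 0.57. Hspa5, the luminal chaperone BiP, rose by 1.77 ± 0.22, Manf by 1.70 ± 0.23 and Dnajb11 by 1.82 ± 0.21, while P4hb fell by 0.82 ± 0.11.

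Of 31 genes of the mitochondrial respiratory chain 22 rose and 1 fell, by small steps with a median of 0.49. This count depended on the scaling of the arrays: over the 4 other scalings it ran from 13 to 22 higher and from 1 to 5 lower. Cycs, the cytochrome c gene, rose most, from 4.27, 4.50 and 4.61 to 6.56, 6.66 and 6.30, by 2.04 ± 0.12 (adjusted p = 2.32e-07). Ndufa4 rose by 1.53 ± 0.12 and Cyc1 by 1.23 ± 0.11. The gene that fell was Tfam, by 0.49 ± 0.17, a call that several alternative settings did not keep, with its 2 other probes rising by 1.06 and 0.74. In the amino acid list 11 of 28 rose and 6 fell, against 33.1% and 30.6% of all genes. Its median difference was -0.1 with array 3 alone and 0.51 with arrays 1 and 2. Shmt1, an enzyme that feeds serine carbon to nucleotides, went from -2.76, -1.83 and -1.41 to 3.10, 3.22 and 2.73, by 5.02 ± 0.35 (adjusted p = 6.09e-07). The glutamine carrier Slc1a5 rose by 1.82 ± 0.18. The stress-induced Trib3 fell by 2.91 ± 0.28, and Asns did not pass the test (0.15 ± 0.28, adjusted p = 0.657).

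Glycolysis and the hypoxia response fell nearly as uniformly as ribosome building rose. Of 36 tested genes 32 fell and 1 rose, with a median of -1.51, and array 3 alone gave 31 and 1. Slc2a3, the glucose carrier GLUT3, stood at 6.70, 6.98 and 6.50 without and 2.36, 2.04 and 1.83 with restimulation. The groups were far apart and it fell by 4.65 ± 0.22 (adjusted p = 1.03e-07). Pdk1, which keeps pyruvate out of mitochondria, fell by 3.91 ± 0.23 (adjusted p = 2.12e-07), the phosphofructokinase Pfkm by 3.70 ± 0.20, Hk1 by 2.11 ± 0.18 and the lactate carrier Slc16a3 by 2.35 ± 0.23. Enzymes of the shared path fell by less, as did Gapdh (-0.90 ± 0.20), Aldoa (-0.78 ± 0.14) and Pkm (-0.71 ± 0.13). Of the targets of hypoxia signalling that are no enzymes of sugar breakdown, Adm fell by 4.58 ± 0.36, Ndrg1 by 3.46 ± 0.30, Bnip3 by 3.42 ± 0.33, Egln1, an oxygen sensor, by 2.79 ± 0.19 and Vegfa by 2.76 ± 0.23. Ldha (-0.17 ± 0.12, adjusted p = 0.238), Hk2 (0.068 ± 0.16, adjusted p = 0.734) and Hif1a itself (-0.29 ± 0.18, adjusted p = 0.181) did not pass the test. The gene that rose was Slc16a1, the other lactate carrier, by 1.85 ± 0.18.

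**Figure D4:**
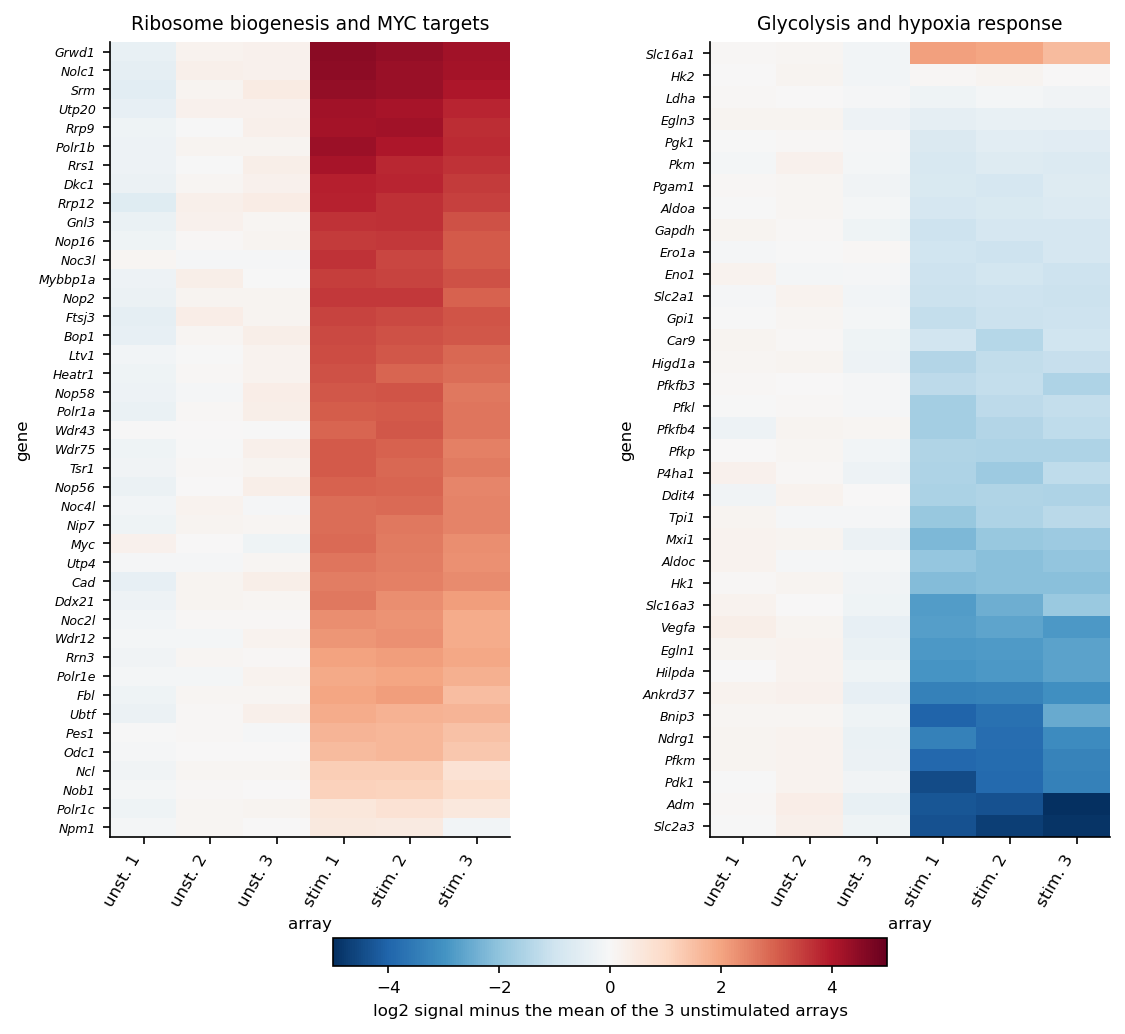
Heat maps of the 42 ribosome biogenesis genes (left) and the 36 glycolysis and hypoxia genes (right), 1 gene a row, sorted by their log2 difference, with the 3 unstimulated and 3 stimulated arrays as columns. Colour is the log2 signal minus the mean of the 3 unstimulated arrays, red above and blue below 0. The 3 stimulated columns look alike, and by the test 41 of the 42 genes on the left rose and 32 of the 36 on the right fell.

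Lipid synthesis was split. Of 38 sterol and fatty acid genes 20 fell and 7 rose, with a median of -0.64. The mevalonate enzymes Mvd, from 2.60, 2.67 and 2.92 to -0.17, 0.17 and 0.64, and Mvk fell by 2.52 ± 0.26 (adjusted p = 9.95e-06) and 1.73 ± 0.20, and the desaturase Scd1 by 2.05 ± 0.21. Fasn, the fatty acid synthase, rose by 2.17 ± 0.21 (adjusted p = 6.3e-06), and Acaca, which supplies it, by 1.82 ± 0.17. Vldlr, a lipoprotein receptor, fell by 4.91 ± 0.23 (adjusted p = 8.65e-08).

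Of 38 replication genes 29 rose and 1 fell, with a median of 1.02, and array 3 alone gave 24 and 1. Cdc6, which loads the replicative helicase, stood at -0.54, -0.21 and 0.62 without and 2.25, 2.36 and 2.46 with restimulation, without overlap, and rose by 2.40 ± 0.33 (adjusted p = 8.21e-05). The helicase subunit Mcm2 rose by 1.83 ± 0.25, Ccne2, a cyclin of the entry into S phase, by 2.31 ± 0.28, Pcna by 1.64 ± 0.16 and Rrm2 by 2.12 ± 0.30. The gene that fell was Prim2, a primase subunit (-1.52 ± 0.13). Of 38 mitosis genes 18 fell and 3 rose, with a median of -0.64. Only 11 fell and 2 rose with array 3 alone, 9 and 2 with the slide as a fixed block, and 16 and 3 with arrays 1 and 2. Cdc25b, a phosphatase that opens mitosis, fell by 2.50 ± 0.42 (adjusted p = 0.000353), Ccnb2, a mitotic cyclin, by 2.24 ± 0.30 (adjusted p = 7.18e-05) and the checkpoint kinase Bub1 by 1.54 ± 0.20. Plk1 (-0.54 ± 0.30, adjusted p = 0.143), Ccna2 (-0.14 ± 0.30, adjusted p = 0.694) and Aurka (-0.14 ± 0.27, adjusted p = 0.669) did not pass the test.

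Genes of naive and resting T cells fell, 21 of 32 tested against 3 that rose, with a median of -1.0. Ccng2, a cyclin of growth arrest, stood at 4.61, 4.39 and 4.11 without and -0.84, -0.40 and -0.32 with restimulation, and fell by 4.89 ± 0.20 (adjusted p = 5.26e-08). Pik3ip1, an inhibitor of PI3 kinase, went from 2.42, 2.16 and 2.07 to -2.46, -2.30 and -2.16, and fell by 4.52 ± 0.11 (adjusted p = 1.42e-08). The cell cycle inhibitor Cdkn1b fell by 3.18 ± 0.16, Pdcd4, which holds back translation, by 2.71 ± 0.17, Tsc22d3 by 2.71 ± 0.17 and Tcf7 by 1.59 ± 0.12. Lef1 did not pass the test (-0.017 ± 0.13, adjusted p = 0.92). The 2 probes of Klf2 disagreed, 1 at -0.18 (adjusted p = 0.334) and 1 at -2.84 (adjusted p = 4.37e-06). Slfn2, a guard of T cell quiescence, rose by 2.76 ± 0.14.

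In the BCL2 family and its stress partners 12 of 26 genes rose and 10 fell, against 33.1% and 30.6% of all genes. Bcl2 itself fell by 2.13 ± 0.13, from 4.78, 5.06 and 5.13 to 2.72, 2.98 and 2.88 (adjusted p = 2.9e-07), while the survival genes Bcl2a1b and Bcl2l1 rose by 3.44 ± 0.18 and 2.02 ± 0.11. Bcl2a1b belongs to a family of near-identical genes, and its probe may also read its relatives. Of the killers of the family Bid rose by 2.08 ± 0.16 and Pmaip1, which encodes NOXA, by 1.75 ± 0.14, whereas Bmf fell by 2.62 ± 0.26. The stress genes Gadd45b and Cdkn1a rose by 2.34 ± 0.15 and 2.14 ± 0.29.

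Interferon-stimulated genes rose in 18 of 40 and fell in 8, with a median of 0.60. Isg15, a ubiquitin-like modifier of the type I response, went from -1.80, -2.26 and -1.92 to 1.43, 1.34 and 1.36, and rose by 3.37 ± 0.32 (adjusted p = 5.38e-06). Mx2 rose by 2.85 ± 0.42, Mx1 by 2.33 ± 0.49 and Ifi35 by 2.11 ± 0.15. Those that fell included Dhx58 (-2.04 ± 0.24), Gbp3 (-1.43 ± 0.32) and Tap1, a peptide transporter of antigen presentation (-1.18 ± 0.16). Ifit1 (0.34 ± 0.27, adjusted p = 0.29) and Irf7 (0.59 ± 0.32, adjusted p = 0.13) did not pass the test.

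Of 27 genes of the TGF-β pathway and its classic targets 8 rose and 9 fell, shares near the 33.1% and 30.6% of all genes. Furin, the protease that activates TGF-β and is induced in activated T cells, rose by 2.64 ± 0.16 (adjusted p = 2.65e-07) and the corepressor Tgif2 by 1.75 ± 0.11. Smad7, the inhibitor that TGF-β induces, fell by 0.69 ± 0.12, Smurf2 by 1.05 ± 0.16 and Ldlrad4 by 2.42 ± 0.29. The signal carrier Smad2 did not pass the test (-0.042 ± 0.10, adjusted p = 0.747). Of 16 mRNA decay genes 5 rose and 4 fell, again against 33.1% and 30.6% of all genes. The destabilizer Zfp36l1 rose by 1.62 ± 0.21 and Elavl1, the stabilizer HuR, by 1.40 ± 0.10, and Btg1 fell by 0.98 ± 0.17.

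Outside the lists, several genes with little known role in T cells were among the largest changes. Crabp2, a carrier of retinoic acid, was not well above background without restimulation and stood at 1.27, 0.93 and 0.37 with it, at least 124-fold higher. Tpbg, a trophoblast glycoprotein, was at least 75.3-fold and Mst1r, a receptor tyrosine kinase, at least 37.6-fold higher. These 3 genes passed the filter only through the stimulated arrays, so no p-value is given for them. Egfr, the receptor for amphiregulin among others, stood at -4.33, -4.16 and -4.42 without and 0.74, 0.76 and 1.63 with restimulation, without overlap, and rose by 5.35 ± 0.35 (adjusted p = 4.27e-07). Pth, the parathyroid hormone gene, stood at -4.36, -3.90 and -1.66 without and 1.31, 1.64 and 4.42 with restimulation, highest on array 3, and rose by 5.77 ± 0.81 (adjusted p = 9.34e-05). Chst2, a sulfotransferase, rose by 5.93 ± 0.30 and Shtn1 by 5.34 ± 0.31.

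Among the genes lost, Smtnl2 stood at 3.44, 3.40 and 2.72 without and -3.17, -2.90 and -2.38 with restimulation, and fell by 6.01 ± 0.29 (adjusted p = 1.05e-07). Arrb1, which encodes β-arrestin 1, fell by 5.15 ± 0.23 (adjusted p = 7.8e-08), Gipr, the receptor of an intestinal hormone, by 5.07 ± 0.35, Cyp2s1 by 5.22 ± 0.59 and the plakophilin Pkp2 by 5.08 ± 0.35. For genes that were no longer well above background after restimulation, the bound was 24-fold for Cdh1, which encodes E-cadherin (adjusted p = 8.75e-06), and for Hpgds, the hematopoietic prostaglandin D synthase found in some Th2 cells, 20.8-fold (adjusted p = 4.6e-08). Pou6f1 was at least 13.1-fold lower.

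Stimulated array 3 was compared with arrays 1 and 2 by itself. It was the only stimulated array on its slide and the only array without Xist. Xist was at least 620-fold lower on it than on arrays 1 and 2 (adjusted p = 1.98e-08). Cd8a, a chain of the CD8 coreceptor, stood at 2.71, 2.42 and 2.16 on the unstimulated arrays and at 2.47, 2.29 and -2.23 on the stimulated arrays. Array 3 alone was low, with a difference of -4.61 ± 0.28 from arrays 1 and 2 (adjusted p = 0.000161). Killer genes were split the same way. Prf1, which encodes perforin, stood at -1.01, -1.02 and -1.76 without and 1.54, 1.29 and -2.29 with restimulation, so that it was up on arrays 1 and 2 (2.68, adjusted p = 6.54e-05) but not on array 3 (-1.02, adjusted p = 0.0652). Gzmb was 1.59 on arrays 1 and 2 and -0.69 on array 3 relative to the unstimulated arrays, and Nkg7 1.29 and -1.82. With all 3 arrays Prf1 (adjusted p = 0.143), Gzmb (adjusted p = 0.204) and Nkg7 (adjusted p = 0.761) were not called.

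By summed signal, the killer, the NK and CD8, and the B cell lists were lower on array 3 than on arrays 1 and 2. The myeloid list and the list of stroma and red cells were higher there. Of 21 killer genes, 3 rose and 4 fell with all arrays, 3 and 10 with array 3 alone, and 10 and 3 with arrays 1 and 2. Their summed signal, in multiples of each array's 75th percentile, was 312 to 341 on the unstimulated arrays and 577, 592 and 383 on stimulated arrays 1, 2 and 3. Their mean log2 level was 0.66, 0.61 and 0.42 without and 1.23, 1.11 and -0.99 with restimulation. Of 9 tested NK and CD8 markers 8 fell and none rose with all arrays, and 9 fell with array 3 alone. Their sum was 25.4 to 32 without restimulation, 17.6 and 16.8 on arrays 1 and 2, and 3.24 on array 3. The NK cell marker Ncr1 was well above background on no Th9 array. Of 19 B cell and MHC class II markers 11 fell and none rose with all arrays, while 9 fell and 2 rose without array 3. The median difference was -2.04 with array 3 alone and -0.67 with arrays 1 and 2. Their sum was 64.4 to 80.9 without and 30.3, 37.7 and 21.6 with restimulation. Blk and Fcrla were well above background on all 3 unstimulated and on no stimulated arrays. Ms4a1, which encodes CD20, stood at -1.10, -0.66 and -0.28 without restimulation and at -3.73 on array 3, -3.60 ± 0.42 from arrays 1 and 2 (adjusted p = 0.00505). In these bulk samples fewer cells of a type and less RNA per cell cannot be told apart. The part of these markers in the changes of cytokines, chemokines and killer genes was not tested.

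Of 14 myeloid markers 4 rose and 4 fell, against 33.1% and 30.6% of all genes. Their sum was 2.84 to 3.86 without and 3.64 to 4.94 with restimulation. A further 6, S100a8 and S100a9 among them, were well above background on no Th9 array. Itgam and Lyz2 were below background on all 6. Of 8 mast cell markers 1 rose and 2 fell, with a sum of 8.41 to 12.3 without and 5.38 to 7.3 with restimulation, and Cpa3 was above background on no Th9 array. Of 6 markers of stroma and red cells 3 fell and none rose, with a sum of 1.64 to 1.89 without and 0.639, 0.571 and 1.59 with restimulation on arrays 1, 2 and 3. Of the 12 T cell markers 5 rose and 4 fell, against the same shares of all genes. Their sum was 361 to 408 without and 458 to 560 with restimulation. Fcgr3, a receptor for antibody, stood at -2.54, -2.32 and -2.11 without and -4.28, -4.42 and 1.43 with restimulation, so that array 3 lay 5.78 above arrays 1 and 2. This was the largest upward difference among genes called there, named through RefSeq and well above background on all 6 Th9 arrays. Genes of the Y chromosome are left out by this rule. Nts, the neurotensin gene, was also higher on array 3 (2.61 ± 0.45, adjusted p = 0.0272), and so was the histone gene H1f2 (2.29 ± 0.37, adjusted p = 0.0215).

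**Figure D5:**
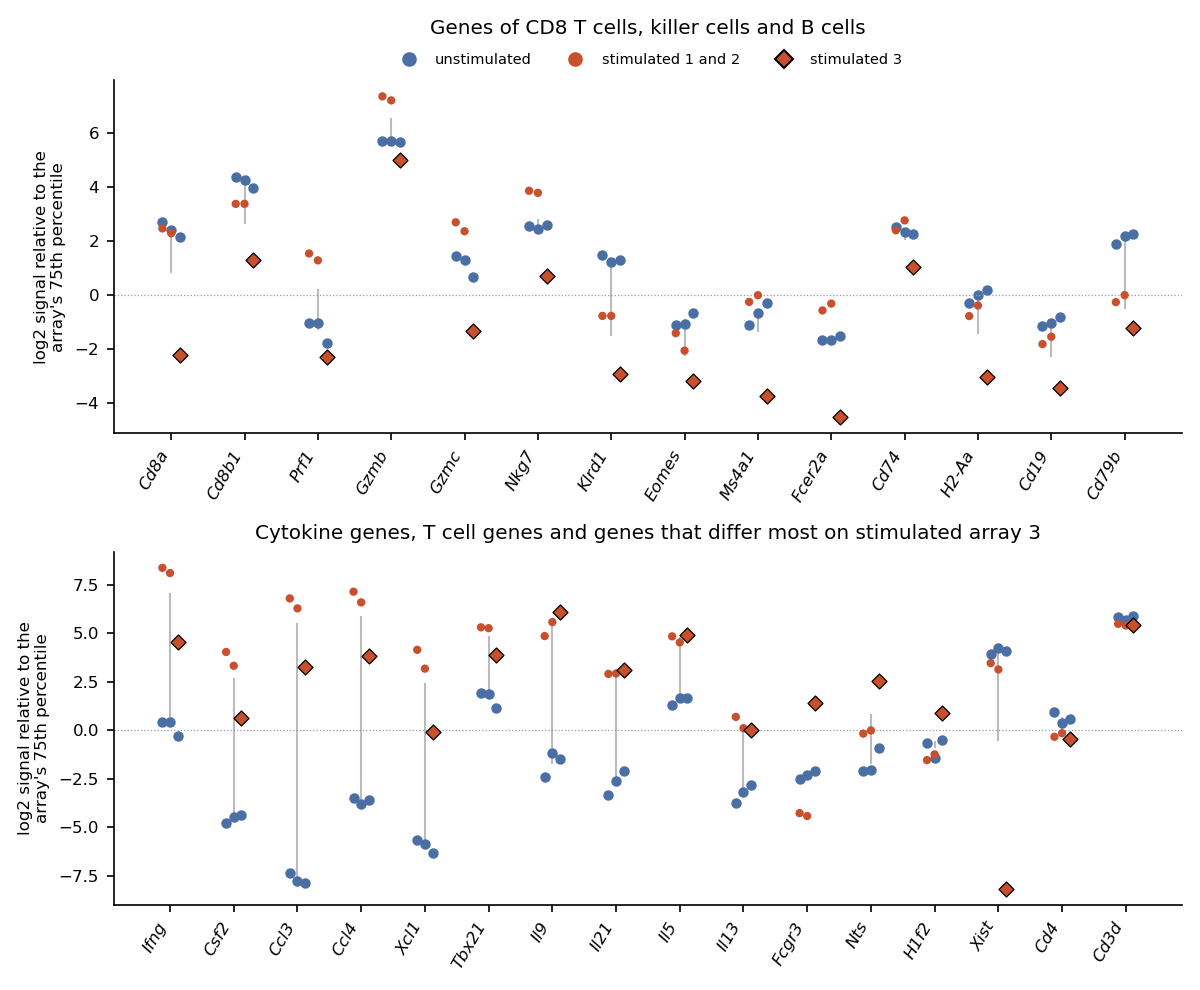
Levels (log2 signal relative to the array's 75th percentile) on the unstimulated (blue) and stimulated (red) Th9 arrays, with stimulated array 3 as a diamond and grey lines between group means. In the upper panel, of genes of CD8 T cells, killer cells and B cells, array 3 lies below arrays 1 and 2. In the lower panel it lies below them for Ifng, Csf2, Ccl3, Ccl4, Xcl1 and Xist, near them for Il9, Il21, Il5, Cd4 and Cd3d, and above them for Fcgr3, Nts and H1f2. Fcgr3 is at 1.43 on array 3 and at -4.28 and -4.42 on arrays 1 and 2.

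The largest changes were picked among genes whose stimulated arrays all lay beyond the unstimulated ones. Their direction on array 3 was therefore fixed by the choice, and only sizes are compared here. Ccl4, Csf2 and Ifng rose by 7.49, 5.21 and 4.36 with array 3 alone and by 10.52, 8.25 and 8.055 with arrays 1 and 2. On array 3 Il9, Il21, Pdcd1 and Myc differed from the unstimulated arrays by 7.80, 5.82, 3.77 and 2.31, against 6.92, 5.61, 3.93 and 2.71 on arrays 1 and 2. Among the genes that fell, Tgfb3, Slc2a3, Ccng2 and Entpd1 differed by -6.63, -4.90, -4.68 and -4.86 on array 3 and by -6.98, -4.53, -4.99 and -4.36 on arrays 1 and 2. These 8 genes do not stand for all changes, and a comparison of 1 array with 2 cannot show that sizes were equal.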

How the data were processed

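Expression was measured on 12 Agilent 4x44K arrays with 1 colour. Per the file headers, the authors' deposited scanner files give the processed signal, an intensity already corrected for background by Agilent Feature Extraction, and the deposited series table holds log2 values, used as an alternative. The aligner and genome build do not apply. Each array's log2 intensity was centred on its 75th percentile. Control spots and outlier spots were left out, probes had to be well above background on at least 3 of 12 arrays, and each gene kept the probe with the highest mean, named through RefSeq by its accession or its present or older symbol where one matched (14209 of 17927 genes) and otherwise by the name in the file. A limma 3.58.1 (R 4.3.3) model with 1 mean per group was fitted to all 12 arrays, and a second one set stimulated array 3 apart, assuming it to vary like the others. The number of arrays limits the precision. Named genes were, per direction, up to 20 with the largest measured differences and 12 with the largest bounds, all without overlap between the groups' arrays. Also named were the largest differences of stimulated array 3, members of 38 gene lists (844 of 899 genes tested) and set cytokines and factors. Members and lists were chosen with earlier results of these data known. The fit was tested on simulated data. Alternatives were other background correction, scaling, probe filters and probe choice, the slide or replicate as a block, and leaving out each array. Counts per list with array 3 alone or without it were added after seeing the data. Xist and genes of the Y chromosome were read on all arrays without the filter, after their values were seen. Promoters of 69 of 90 named genes were matched by symbol.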

Additional observations from a re-analysis of the deposited data

How the results depend on the processing

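The counts of rising and falling genes stayed within 1.5 times of the reported ones under all 17 alternatives. They ran from 5045 to 6399 higher and from 4248 to 6536 lower, and leaving out each array gave 5482 to 5791 higher and 5035 to 5448 lower. Scaling to probes detected on all arrays moved the median of all genes from 0.019 to -0.136, normexp background correction to 0.116 and dropping the filter on dim probes to 0.119, so that small differences shift by about as much. The medians of the homing, NFAT, lineage, TNF receptor, SOCS and BCL2 lists, all near 0, changed sign between scalings. So did those of the killer gene list and of the T cell, myeloid and mast cell marker lists. With the slide as a fixed block, which leaves array 3 alone in the contrast, 4810 genes were higher and 4248 lower, and 76% of the calls remained. Genes that differed between array 3 and arrays 1 and 2 were 63 higher and 92 lower with probes well above background on all 12 arrays, and 234 were higher without a filter. Of 235 named genes that were called, 10 lost the call in at least 1 alternative. Of 38 named genes that were not called, 22 were called in at least 1, so a gene that did not pass is not thereby unchanged. With the mean over a gene's probes, 4 of the genes named turned round, to 1.054 for Cxcl16, 0.892 for Hsf1, 0.362 for Nfatc1 and 0.436 for Tfam. Same-numbered stimulated and unstimulated arrays had correlations of deviations of 0.207, 0.108 and 0.095, not all above 0.1, so the numbers were not taken to pair the samples. Each array correlated best with its own number. On the arrays numbered 3, Xist stood at -8.19 with and 4.08 without restimulation. These correlations are not independent of each other, and whether the numbers pair the samples was not tested. The replicate block gave 6015 higher and 5586 lower genes. For Ets1, Ikzf2, Il2ra, Smurf2 and Stat6 at least 1 further probe did not pass the test, for Bmf, Egr3 and Shtn1 a further probe gave a smaller log2 difference (-0.99, 1.91 and 2.30), and for Cd8a, Hspa1a, Junb and Npm1, not called, a further probe did pass (-3.08, -1.44, 0.25 and 0.40). A gene below background in a whole group has at most a lower bound, and 3 arrays per group limit how small a difference can be called.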
